A study of Mus musculus with 6 samples.

Results

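The comparison described here set fenofibrate against the diet alone in mouse liver. It took the 2 arrays of fenofibrate-treated mice minus the 2 arrays of mice on the HFC diet, which are 4 of the 6 arrays of the series. The arrays were chosen by sample title and not by any measured value. Each array held liver RNA of 1 C57BL/6 mouse, 7 weeks old, against pooled liver RNA of 6 C57BL/6 mice of that age on standard chow. All compared mice had 12 days of the HFC diet, which the sample names call a high-fat diet. From day 5 the fenofibrate mice were dosed by mouth once daily at 100 mg/kg. The design text gives the HFC group vehicle by the same route, while the labels of the HFC samples name the diet alone. A further 2 arrays of HFC-fed mice given lovastatin at 30 mg/kg entered the estimate of spread and are quoted beside some genes. They follow their titles, because their treatment text names fenofibrate instead.

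Fenofibrate is a lipid-lowering fibrate whose active acid binds PPARα, a nuclear receptor that pairs with RXR on direct-repeat DNA sites. In rodent liver PPARα is known for switching on the enzymes that take up, activate and burn fatty acids in peroxisomes, in mitochondria and, by ω-hydroxylation, in the endoplasmic reticulum. Fibrates are also known for lowering plasma triglycerides, in part through apolipoprotein genes.

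Values are log ratios of the mouse to the chow pool, taken as log2, so that 1 unit is a doubling. The direction, mouse over pool, is likely rather than stated. It rests on the labels, which list the mouse as the first channel of every array. A repeated unnamed control bears only on whether the groups share the same direction, because inverting every ratio would leave its sign change between dyes. That control was at -4.20 and -5.84 on HFC, where the mouse carried Cy5, and at 4.83 and 4.95 on fenofibrate arrays, where it carried Cy3. HFC and fenofibrate arrays correlated positively over all features (r 0.178 to 0.319), as a description over features that are not independent. The 2 HFC arrays correlated with each other at only 0.267, and the 2 fenofibrate arrays at 0.402. HFC replicate 1 correlated with the fenofibrate arrays at 0.319 and 0.298, and HFC replicate 2 at 0.183 and 0.178. Because the dyes differ between the groups, a gene-specific dye effect and the drug cannot be told apart in any value below. On HFC replicate 2, 4 of 8 blocks of array columns were displaced. Their correlation with the other arrays was -0.045 to 0.0116 as deposited and 0.293 to 0.338 after each block was rotated along the array rows, which was done throughout. Replicates differed by a median of 0.32 for HFC and 0.28 for fenofibrate. Ratios to a pool give no absolute level, so the tissue could not be checked from its markers.

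Across 19468 features, 0 (0%) differed between fenofibrate and HFC at an adjusted p under 0.05 by limma with Benjamini-Hochberg adjustment, and the smallest adjusted p was 0.999. At an unadjusted p under 0.05 there were 783 (4.02%), of which 388 (1.99%) were higher and 395 (2.03%) lower with fenofibrate. These values depend on the spread of the lovastatin arrays, whose replicates differed most. Without the lovastatin arrays 1449 of 19468 features had an unadjusted p under 0.05 by limma. None passed the adjusted threshold, and the smallest adjusted p was 0.661. With the sign of the fenofibrate ratios alone turned, 117 features passed. The count of 0 therefore holds where the ratios of both groups run in the same direction. No gene below therefore passed the test, and its values are given as measured. With 2 arrays against 2, an exact two-sided permutation test cannot give a p under 0.333. The typical 95% interval of a difference reached 0.885 to either side, and 0.712 without the lovastatin arrays.

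The comparison was described by the genes whose arrays did not overlap. Of 18494 features measured on all 4 arrays, 3477 (18.8%) had both fenofibrate arrays above both HFC arrays and 3958 (21.4%) had both below. Together these were 7435 features (40.2%), of which 2310 lay apart by 0.1 or less. A gap of over 1 log2 unit between the nearest arrays was rarer, with 65 features (0.351%) higher and 47 (0.254%) lower. The counts for each gene group below are read against these shares. The gene lists were chosen with earlier results of these data known, so their counts are a description and not independent support. The median difference over all features was -0.03.

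**Figure D1:**
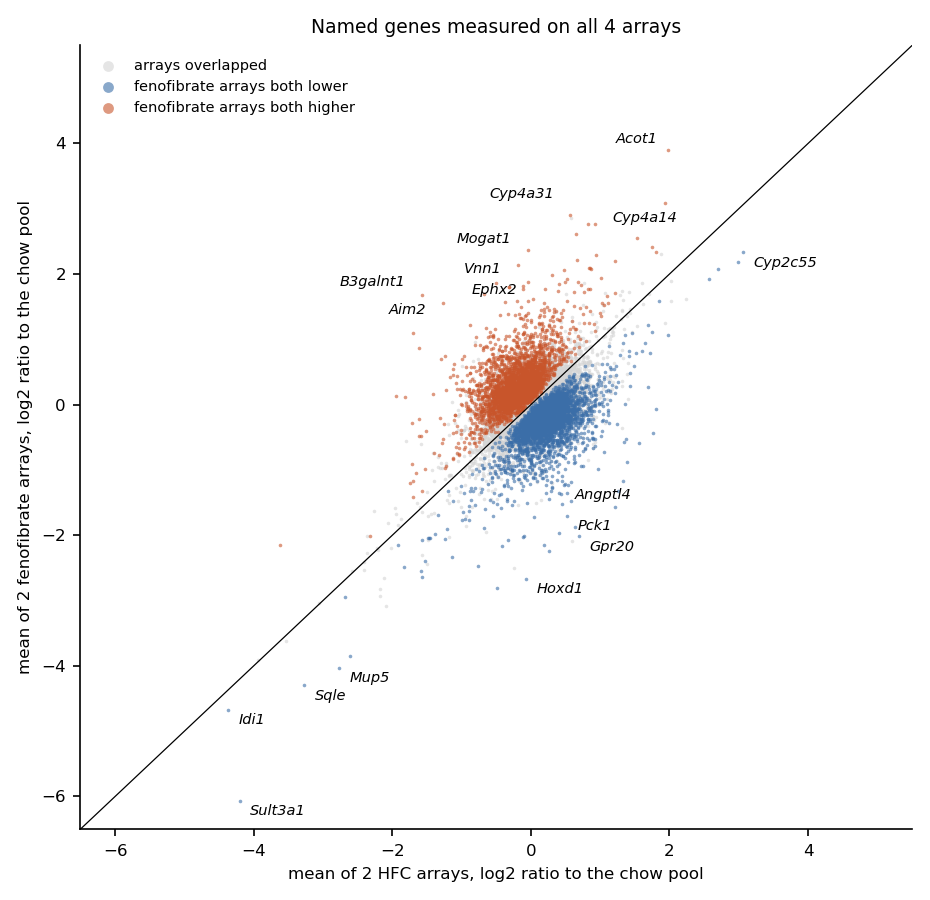
Each point is a named gene measured on all 4 arrays, with the mean of the 2 HFC arrays on the horizontal axis and of the 2 fenofibrate arrays on the vertical axis, both as log2 ratios to the chow pool. Orange points are the 3085 genes with both fenofibrate arrays higher, blue points the 3445 with both lower, grey points overlapped, and the line marks equal means.

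Among named genes, the scatter of fenofibrate against HFC means shows the Cyp4a genes, Acot1, Mogat1 and Vnn1 above the line and Pck1, Angptl4 and Hoxd1 below it. Sqle and Sult3a1 lay far below the pool in both groups.

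Most genes of fatty acid oxidation lay higher with fenofibrate than on the diet alone. Of 55 members measured on all 4 arrays in 3 lists (ω-oxidation, peroxisomal and mitochondrial), 32 had both fenofibrate arrays above both HFC arrays and 3 both below, against 18.8% and 21.4% of all features. Their median difference was 0.395, and 16 had an unadjusted p under 0.05 in the higher direction and 0 in the lower. None passed the adjusted test by limma.

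The largest differences among them belonged to the Cyp4a enzymes, cytochromes P450 that hydroxylate the ω-end of fatty acids. Cyp4a31 read 0.59 and 0.55 on the HFC arrays and 3.01 and 2.79 with fenofibrate. Cyp4a14 read 1.28 and 0.58 on HFC and 2.98 and 2.54 with fenofibrate. The groups stood well apart for both, and every one of the 4 fenofibrate readings exceeded 2.5. The difference was 2.33 for Cyp4a31 (SE 0.29, 95% interval 1.59 to 3.07, unadjusted p = 0.000341 by limma) and 1.83 for Cyp4a14 (SE 0.35). Cyp4a10 had 0.49 and 0.55 on HFC against 2.15 and 1.70, and Cyp4a12a had 0.53 and 0.82 against 1.98 and 1.78. These genes are close paralogs, and their probes could cross-hybridise, so the 4 readings may not be separate. The lovastatin arrays read 1.54 and 0.96 for Cyp4a31 and 2.29 and 1.94 for Cyp4a14, also above both HFC arrays, which both drug groups share as their baseline. Aldh3a2, a fatty aldehyde dehydrogenase of the same route, had 0.55 and 0.08 on HFC and 1.19 and 1.53 with fenofibrate. Cyp4f14, a P450 that hydroxylates leukotrienes, went the other way, with -1.0 and -0.80 on HFC and -1.71 and -1.82 with fenofibrate. In all, 5 of 10 members of this list were higher and 1 lower.

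Peroxisomal β-oxidation shortens very long chain fatty acids, and 14 of its 23 members were higher and 0 lower, with a median difference of 0.31. Abcd3, a transporter of fatty acyl chains into the peroxisome, read -0.39 and -0.35 on HFC and 0.68 and 1.32 with fenofibrate (difference 1.37, SE 0.30). Ech1, a dienoyl-CoA isomerase, read -0.12 and -0.52 against 1.28 and 0.83. Ehhadh, the bifunctional enzyme of the pathway, read 1.03 and 0.71 against 2.34 and 1.81 (difference 1.21, SE 0.29). For all 3 genes the lowest fenofibrate array was above the highest HFC array by over 0.7. Phyh, which starts α-oxidation of branched fatty acids, differed less, with -0.88 and -0.70 against -0.21 and 0.09. Catalase (Cat) and the carnitine acyltransferases Crat and Crot were among the 9 members whose arrays overlapped. Of the genes for peroxisome assembly, 2 of 9 were higher and 1 lower.

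In the mitochondrial list 13 of 22 members were higher and 2 lower, with a median difference of 0.42. Acadvl, the very long chain acyl-CoA dehydrogenase, read -0.05 and 0.05 on HFC and 1.44 and 1.14 with fenofibrate (difference 1.29, SE 0.29). Acadm, its medium chain counterpart, read 0.12 and -0.16 against 0.89 and 1.21, and Acadl, for long chains, read -0.08 and -0.13 against 0.55 and 0.92. Hadhb, a subunit of the trifunctional protein, read 0.38 and -0.05 against 1.10 and 1.17. Hadha, its partner subunit, overlapped, with a difference of -0.2. The mean differences of Acadvl, Acadm and Acadl lay between 0.84 for Acadl and 1.29 for Acadvl, while Acads, for short chains, overlapped. Slc25a20, which carries acylcarnitines across the inner membrane, read 0.46 and -0.41 against 1.17 and 0.97. Cpt1a, the liver carnitine palmitoyltransferase at the entry to mitochondria, did not follow, with 0.07 and -0.22 on HFC and -0.43 and -0.02 with fenofibrate. The 2 lower members were Acad10, an acyl-CoA dehydrogenase family member, and Mlycd, malonyl-CoA decarboxylase.

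**Figure D2:**
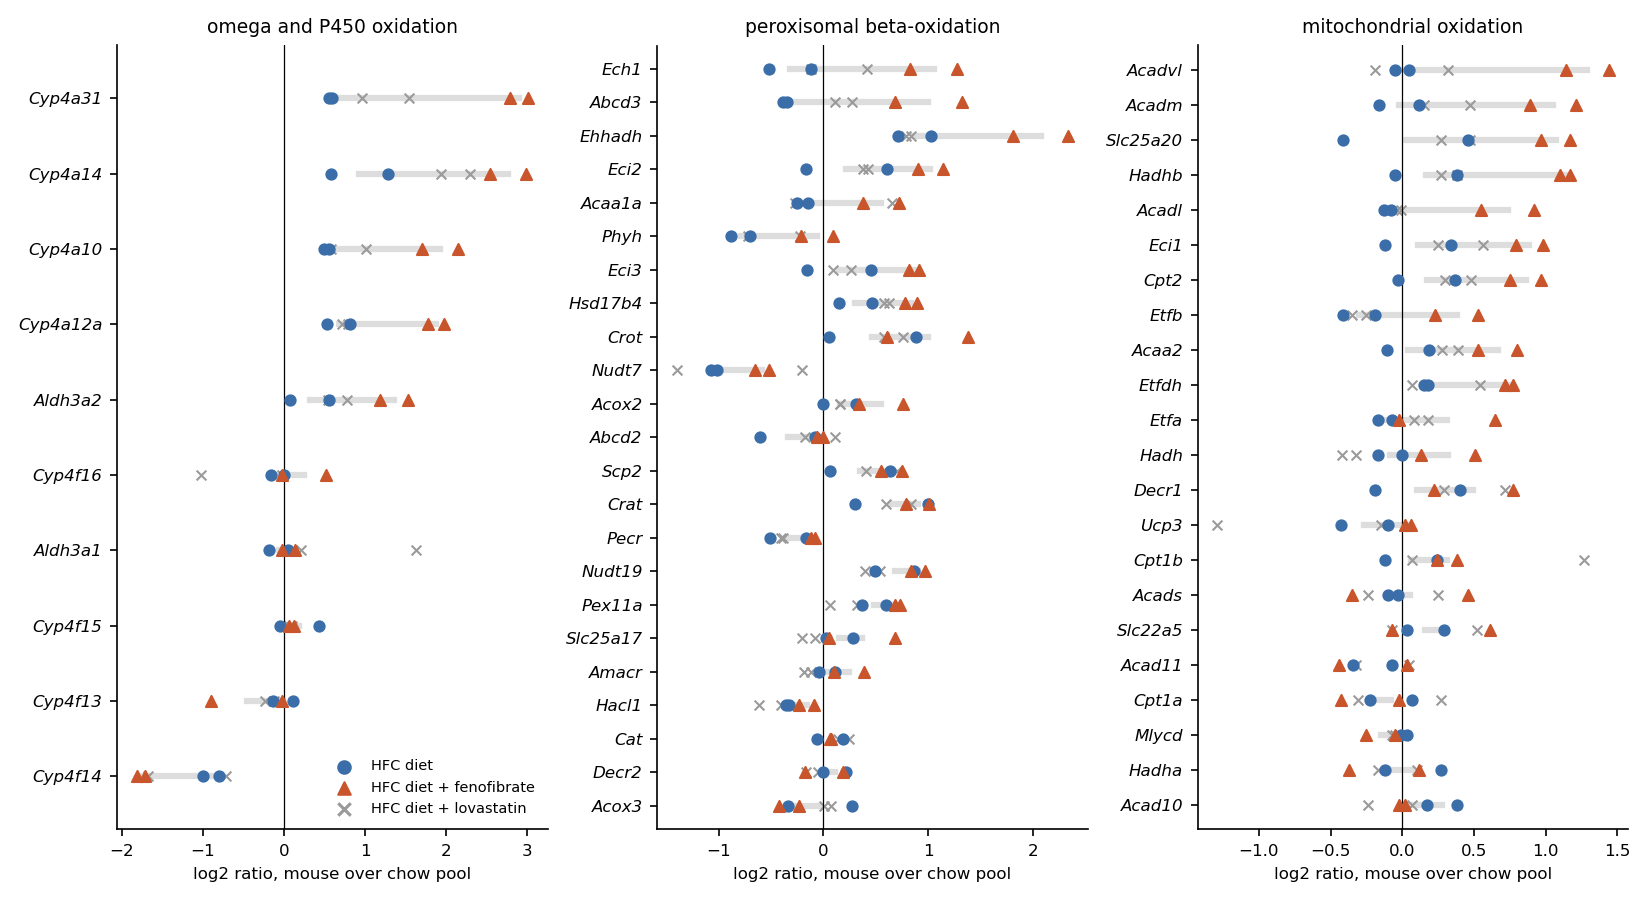
Log2 ratio of each mouse to the chow pool for the measured members of 3 fatty acid oxidation lists, ordered by difference, with HFC arrays as circles, fenofibrate arrays as triangles, lovastatin arrays as crosses and grey bars joining the HFC and fenofibrate means. In the left panel the fenofibrate triangles of Cyp4a31 sit at 3.01 and 2.79, and the lower end of each panel holds the members that overlapped or lay lower.

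The dot plot of the 3 oxidation lists shows this pattern by gene, with triangles to the right of circles for most members and the groups mixed at the foot of each panel. Lovastatin arrays, on the same HFC baseline, both exceeded both HFC arrays for 9 of the 32 members that were higher with fenofibrate. Over all features this held for 924 of the 3477 that were higher, a similar share. Without the displaced blocks, 4 members of the ω-oxidation list, 15 of the peroxisomal and 13 of the mitochondrial list remained measured, of which 1, 10 and 8 were higher. With the sign of the fenofibrate ratios alone turned, 15 of 23 peroxisomal members were lower and 5 higher, and 12 of 22 mitochondrial members lower and 3 higher. Of 10 ω-oxidation members, 6 were then lower and 1 higher. The counts above therefore hold where the ratios of both groups run in the same direction.

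Genes that bring fatty acids into the cell and hold them there were higher for 6 of 14 members and lower for 3. Cd36, a fatty acid translocase, read 0.12 and 0.26 on HFC and 1.17 and 1.67 with fenofibrate (difference 1.23, SE 0.28). Vldlr, a receptor for triglyceride-rich particles, read -0.60 and -0.50 against 0.36 and 0.90. Fabp1, the liver fatty acid binding protein, was above the pool on the diet already, at 0.87 and 0.84, and read 1.92 and 1.62 with fenofibrate. Each of these 3 genes kept its groups apart by more than 0.7. Fabp2, the intestinal form, read 1.80 and 1.69 against 2.58 and 2.26. Lpl, lipoprotein lipase, read 1.92 and 1.70 against 2.54 and 2.12, a difference of 0.52 (SE 0.32) whose unadjusted p by limma was 0.166. Lovastatin arrays read 0.15 and 0.07 for Cd36, inside or below the HFC range. The lower members were Fabp4, Fabp7 and Dbi, and Fabp3, Slc27a1, Slc27a2, Slc27a4 and Slc27a5 overlapped. Fabp5, not measured on all 4 arrays, differed by -1.105. With array spreads made equal (MAD scaling) 4 of 14 members were higher and 2 lower, as under quantile normalization. With the sign of the fenofibrate ratios turned, 4 were higher and 8 lower.

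Promoter sequence was set beside these genes because PPARα with RXR is known to bind a closely spaced direct repeat. A motif of 2 AGGTCA half-sites spaced by any base was searched on both strands with at most 2 mismatches over its 12 fixed letters, in the 250 bases before each start in RefSeq GRCm38.p6. It was present in 1005 of 27025 genes of the table (3.72%). Of the fatty acid oxidation members with a sequence, it was present in 2 of 25 that were higher (8%) and in 2 of 18 others (11.1%). The promoters below belong to 5 genes described here that hold a match, shown in capitals. Cat, Plin2 and Cyp4f16, whose arrays overlapped, and Ucp3, which lay higher, also hold a match with 2 mismatches and are not printed. Fabp1 had 1 mismatch and the others had 2.

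Fabp1: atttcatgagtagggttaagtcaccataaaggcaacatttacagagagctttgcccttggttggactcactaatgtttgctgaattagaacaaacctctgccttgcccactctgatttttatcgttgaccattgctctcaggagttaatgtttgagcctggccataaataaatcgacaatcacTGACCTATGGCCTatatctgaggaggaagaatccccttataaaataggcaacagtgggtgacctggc
Cd36: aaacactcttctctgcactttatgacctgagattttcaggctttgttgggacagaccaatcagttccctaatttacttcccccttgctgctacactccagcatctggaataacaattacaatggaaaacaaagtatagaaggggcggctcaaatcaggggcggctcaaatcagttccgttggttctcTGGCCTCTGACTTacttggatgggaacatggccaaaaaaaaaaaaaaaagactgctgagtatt
Mogat1: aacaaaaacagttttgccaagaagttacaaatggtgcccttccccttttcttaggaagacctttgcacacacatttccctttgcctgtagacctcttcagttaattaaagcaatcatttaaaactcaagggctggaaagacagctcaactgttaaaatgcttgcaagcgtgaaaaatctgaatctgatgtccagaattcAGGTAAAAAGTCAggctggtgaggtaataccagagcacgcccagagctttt
Etfa: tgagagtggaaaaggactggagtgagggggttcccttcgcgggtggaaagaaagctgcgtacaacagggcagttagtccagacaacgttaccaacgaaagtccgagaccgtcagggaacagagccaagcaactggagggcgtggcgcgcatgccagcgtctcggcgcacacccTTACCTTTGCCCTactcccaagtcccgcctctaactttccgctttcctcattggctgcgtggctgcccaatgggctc
Apoa2: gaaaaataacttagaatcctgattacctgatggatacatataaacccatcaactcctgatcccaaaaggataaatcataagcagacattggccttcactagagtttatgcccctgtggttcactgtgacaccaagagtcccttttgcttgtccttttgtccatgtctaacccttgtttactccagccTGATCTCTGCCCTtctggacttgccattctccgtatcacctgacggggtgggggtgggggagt

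These windows are chr6:71199629-71199878 for Fabp1 on the plus strand, chr5:17835897-17836146 for Cd36 on the minus strand, chr1:78510810-78511059 for Mogat1 on the plus strand, chr9:55512244-55512493 for Etfa on the minus strand and chr1:171224804-171225053 for Apoa2 on the plus strand. The match ended 55 bases before the start in Fabp1, 51 in Cd36, 39 in Mogat1, 65 in Etfa and 51 in Apoa2. Fabp1, Cd36, Mogat1 and Etfa, an electron transfer flavoprotein subunit, lay higher with fenofibrate, while Apoa2 lay lower. A match is a description of the letters and not of binding.

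Acyl-CoA thioesterases and synthetases, which release or activate fatty acids, were higher for 8 of 19 members and lower for 3. Acot1, the cytosolic thioesterase, had the highest fenofibrate ratios of the genes named here, at 3.76 and 4.05, and was also high on the diet at 2.48 and 1.48 (difference 1.93, SE 0.40). Acot8, a peroxisomal thioesterase, read 0.02 and -0.34 on HFC and 0.68 and 0.58 with fenofibrate. Acot1 and Acot3 belong to a cluster of near copies on chromosome 12, and a shared signal between the probes of that cluster was not tested. Acot8 lies on chromosome 2. Ketone body and pyruvate switch genes were higher for 3 of 7 members and lower for 0. Acat1, which makes acetoacetyl-CoA, read -0.70 and -0.84 against 0.37 and 0.08. Pdk4, the kinase that shuts pyruvate out of oxidation, overlapped at 0.58 and -0.58 against 0.13 and 0.16. The hormone gene Fgf21 also overlapped, at 0.70 and -0.24 against -0.41 and 0.00.

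A list of genes known as PPARα targets was mixed, with 12 of 27 members higher and 6 lower. Some of its members, among them Ehhadh, Pex11a, Cpt1a and Fgf21, were also counted in the lists above. Vnn1, a pantetheinase, read 0.26 and -0.63 on HFC and 1.96 and 2.31 with fenofibrate (difference 2.32, SE 0.37), while lovastatin read 0.09 and 0.16. Gpat3, which starts glycerolipid synthesis, read 0.15 and -0.24 against 1.31 and 1.49. Sult2a8, a bile acid sulfotransferase, stayed far below the pool but less so with fenofibrate, at -3.28 and -3.95 against -2.33 and -1.96. Angptl4, a secreted inhibitor of lipoprotein lipase and a known target, lay on the opposite side, with 0.83 and 0.15 on HFC and -1.46 and -0.98 with fenofibrate (difference -1.71, SE 0.39). Its lovastatin arrays read -1.03 and -1.64, also below both HFC arrays. Plin2, a lipid droplet coat protein, overlapped at 0.85 and -0.08 against 0.23 and 0.52. Ppara itself overlapped, at 0.21 and -0.35 against -0.39 and 0.25.

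The largest gaps between the groups were not all in lipid genes. Aim2, a cytosolic DNA sensor, read -1.09 and -1.45 on HFC and 1.33 and 1.77 with fenofibrate (difference 2.82, SE 0.31, 95% interval 1.98 to 3.66). Mogat1, a monoacylglycerol acyltransferase, read -0.55 and 0.47 against 2.34 and 2.40. Ephx2, soluble epoxide hydrolase, was closely replicated, with -0.02 and -0.06 against 1.62 and 1.56. B3galnt1, a glycosyltransferase, read -0.57 and -2.57 against 1.73 and 1.63, so its HFC mice differed from each other by 2.0. Aim2 and B3galnt1 had a value on only 1 lovastatin array. The 15 named genes with the largest gap upward also held the odorant receptors Olfr495 and Olfr1100. Olfr495 read -0.40 and -0.62 on HFC and 1.46 and 2.27 with fenofibrate, and its lovastatin arrays read -3.50 and -1.12.

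Among genes with the largest gap downward, Hoxd1, a homeobox factor, read -0.22 and 0.08 on HFC and -3.32 and -2.02 with fenofibrate (difference -2.60, SE 0.48). Gpr20, an orphan receptor, read -0.27 and 1.65 against -2.03 and -2.0. Pck1, the gatekeeper enzyme of gluconeogenesis, read 0.41 and 0.64 against -2.22 and -1.18 (difference -2.23, SE 0.57). For all 3 genes both fenofibrate arrays were over 1.5 below the nearest HFC array. Lovastatin arrays read -0.61 and -1.99 for Pck1 and 0.43 and -0.04 for Hoxd1. Fgb, the fibrinogen β chain, is a liver-secreted product among these 15 genes, with 0.37 and 0.49 on HFC and -0.92 and -1.82 with fenofibrate. The other fibrinogen chains differed far less, by -0.235 for Fga, whose arrays overlapped, and by -0.205 for Fgg.

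Most genes for plasma proteins made by the liver lay lower with fenofibrate. Of 17 members of the apolipoprotein and lipoprotein list, 12 were lower and 0 higher, with a median difference of -0.425. Of 28 coagulation and complement members, 21 were lower and 1 higher, with a median of -0.367 over the 30 measured. Both counts stand against 21.4% lower and 18.8% higher over all features. The median member of the coagulation list read -0.125 and -0.115 on HFC, -0.025 and -0.115 with lovastatin and -0.425 and -0.50 with fenofibrate.

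Among apolipoproteins, Apoh, which binds phospholipids in plasma, read -0.11 and -0.15 on HFC and -1.33 and -1.29 with fenofibrate (difference -1.18, SE 0.23). Apoe, a ligand for remnant uptake, read 0.12 and 0.38 against -0.54 and -1.01. Apoc3, an inhibitor of triglyceride clearance, read -0.68 and -0.17 against -1.35 and -1.39. The groups of each of these genes lay apart by over 0.6. Apof, carried on lipoproteins, read -0.47 and -0.45 against -1.26 and -1.52. Apoa2, a structural protein of HDL, read -0.15 and -0.35 against -1.01 and -0.87. Apoa5, an activator of triglyceride clearance, read 0.24 and 0.40 against -0.08 and 0.08. Apoa1, the main protein of HDL, overlapped, at -0.53 and -0.80 against -0.39 and -1.16. Lovastatin arrays of Apoe (0.46 and 0.28) and Apoa2 (-0.14 and -0.33) stayed in or near the HFC range.

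Among clotting and complement genes, F2, prothrombin, read 0.10 and 0.51 on HFC and -1.0 and -1.19 with fenofibrate (difference -1.40, SE 0.27). C8g and C9, parts of the membrane attack complex, read 0.24 and 0.59 against -0.37 and -0.63, and 0.40 and 0.06 against -0.50 and -0.59. Mbl2, a mannose-binding lectin, read 0.06 and -0.16 against -0.65 and -0.88. These genes were above or close to the pool on the diet and below it with fenofibrate. The member that was higher was Klkb1, plasma prekallikrein. Lovastatin arrays read 0.34 and 0.21 for F2 and 0.66 and 0.31 for C9.

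**Figure D3:**
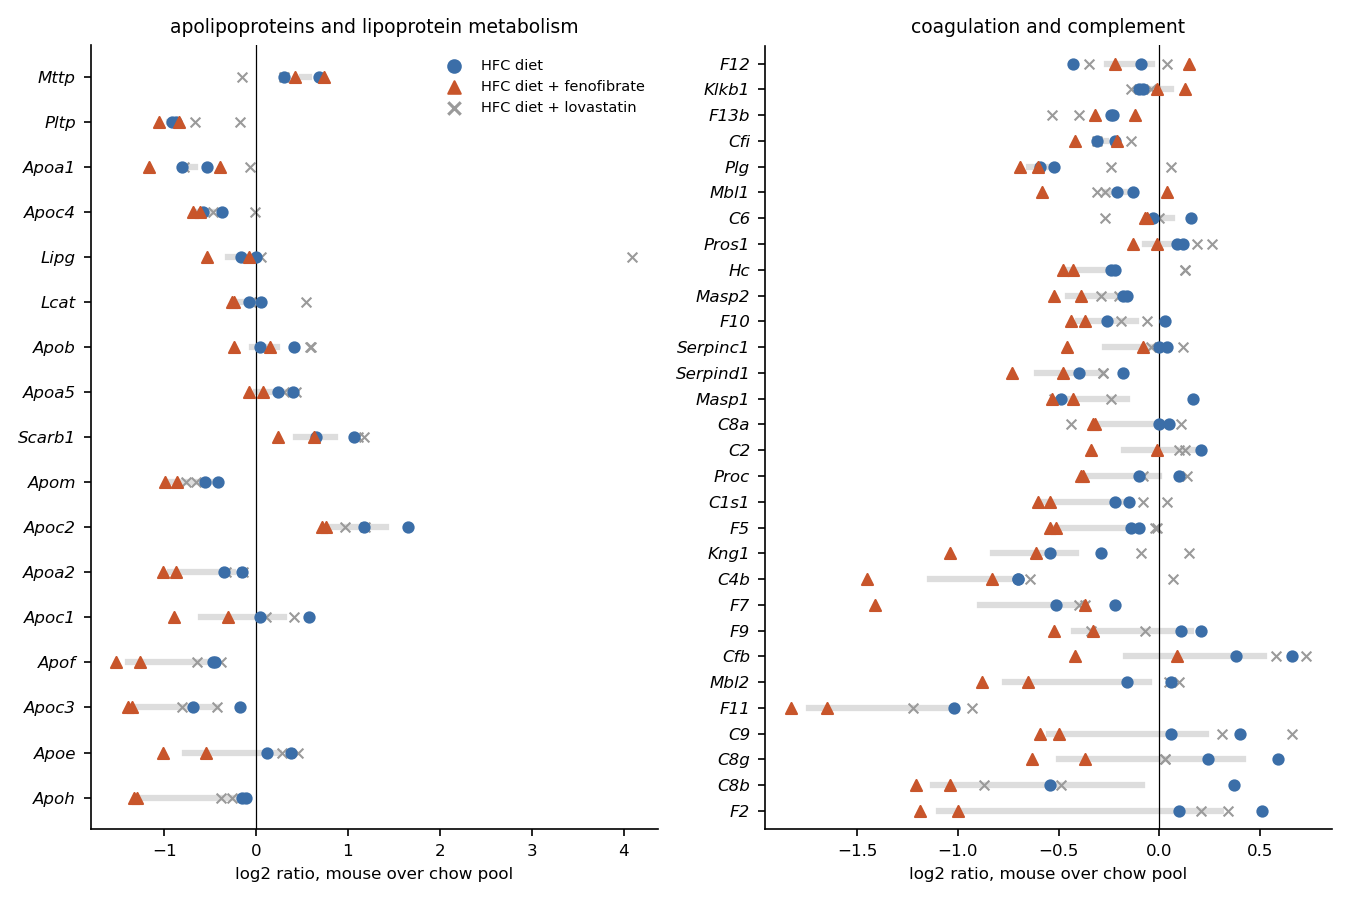
Log2 ratio of each mouse to the chow pool for measured genes of lipoprotein metabolism (left) and of coagulation and complement (right), with HFC arrays as circles, fenofibrate arrays as triangles, lovastatin arrays as crosses and grey bars joining the HFC and fenofibrate means. Triangles lie left of both circles for 12 of 17 lipoprotein members and for 21 of 28 coagulation and complement members measured on all 4 arrays.

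Acute phase reactants, secreted in inflammation, were lower for 14 of 25 members and higher for 3. Mt1, a metallothionein, read -0.05 and 1.08 on HFC and -1.27 and -1.43 with fenofibrate, and -2.28 and -2.91 with lovastatin. Hepatocyte markers themselves were lower for 7 of 14 members and higher for 0, with a median difference of -0.458. Trf, transferrin, read 0.62 and 0.19 against -0.62 and -0.90, and Ahsg, fetuin-A, read -0.86 and -0.50 against -1.55 and -2.23. Whether fewer hepatocytes or less RNA per cell lay behind these values cannot be told apart in bulk tissue. The 7 lower markers include Alb and Hnf4a, and the overlapping ones include Cps1, Tat and Cyp2e1. Part of the plasma protein and marker lists is shared, as Fgb, Apoa1 and Apob show. The part of the marker shift in the plasma protein counts was not tested. Without the displaced blocks, 6 of 9 apolipoprotein members and 10 of 12 coagulation members were lower. With the sign of the fenofibrate ratios turned, 11 of 17 apolipoprotein members and 22 of 28 coagulation members were higher instead. The same turn left 16 of 25 acute phase members higher and 4 lower, and 9 of 14 hepatocyte markers higher and 1 lower.

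Glucose production and glycolysis genes were lower for 8 of 15 members and higher for 2. Besides Pck1, G6pc, which releases glucose from the hepatocyte, read -0.19 and -1.34 on HFC and -2.17 and -2.78 with fenofibrate (difference -1.71, SE 0.45). Tkfc, a triose and fructose pathway kinase, read 0.35 and 0.52 against -0.53 and -0.58. Fbp1, the gluconeogenic bisphosphatase, read -0.83 and -0.60 against -1.16 and -1.51. All 4 genes had both fenofibrate arrays below both HFC arrays. For G6pc the lovastatin arrays read -1.34 and -1.32. With the sign of the fenofibrate ratios turned, 8 of the 15 members were higher and 3 lower. Genes of amino acid use were nearer the background, with 6 of 34 higher and 11 lower. Gnmt, a methyltransferase that uses up S-adenosylmethionine, read -1.01 and -1.26 against -2.13 and -2.53, with lovastatin at -1.08 and -0.98.

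Subunits of the mitochondrial respiratory chain and ATP synthase lay higher by small amounts. Of 38 members on all 4 arrays, 23 were higher and 2 lower. Over the 40 measured members the median difference was 0.203, and 8 had an unadjusted p under 0.05 by limma. The median member read -0.015 and -0.005 on HFC, -0.13 and -0.095 with lovastatin and 0.275 and 0.16 with fenofibrate. Cyc1, of complex III, read -0.43 and -0.23 on HFC and 0.51 and 0.94 with fenofibrate (difference 1.05, SE 0.27). Sdhd, of complex II, read -0.41 and -0.27 against 0.44 and 0.65. Cox5a, of complex IV, read -0.25 and -0.24 against 0.56 and 0.58. These genes went from below the pool on the diet to above it, in both mice of each group. Cox4i1 read -0.09 and -0.12 against 0.61 and 0.82, and Atp5o, of ATP synthase, read -0.01 and -0.14 against 0.64 and 0.62. Cox6c, another complex IV subunit, was lower, at 0.59 and 0.26 against -0.28 and 0.04. Lovastatin arrays both exceeded both HFC arrays for 0 of the 23 higher members, beside 924 of 3477 higher features over all features. Without the displaced blocks 10 of 20 members were higher, and with the sign of the fenofibrate ratios turned 4 of 38.

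**Figure D4:**
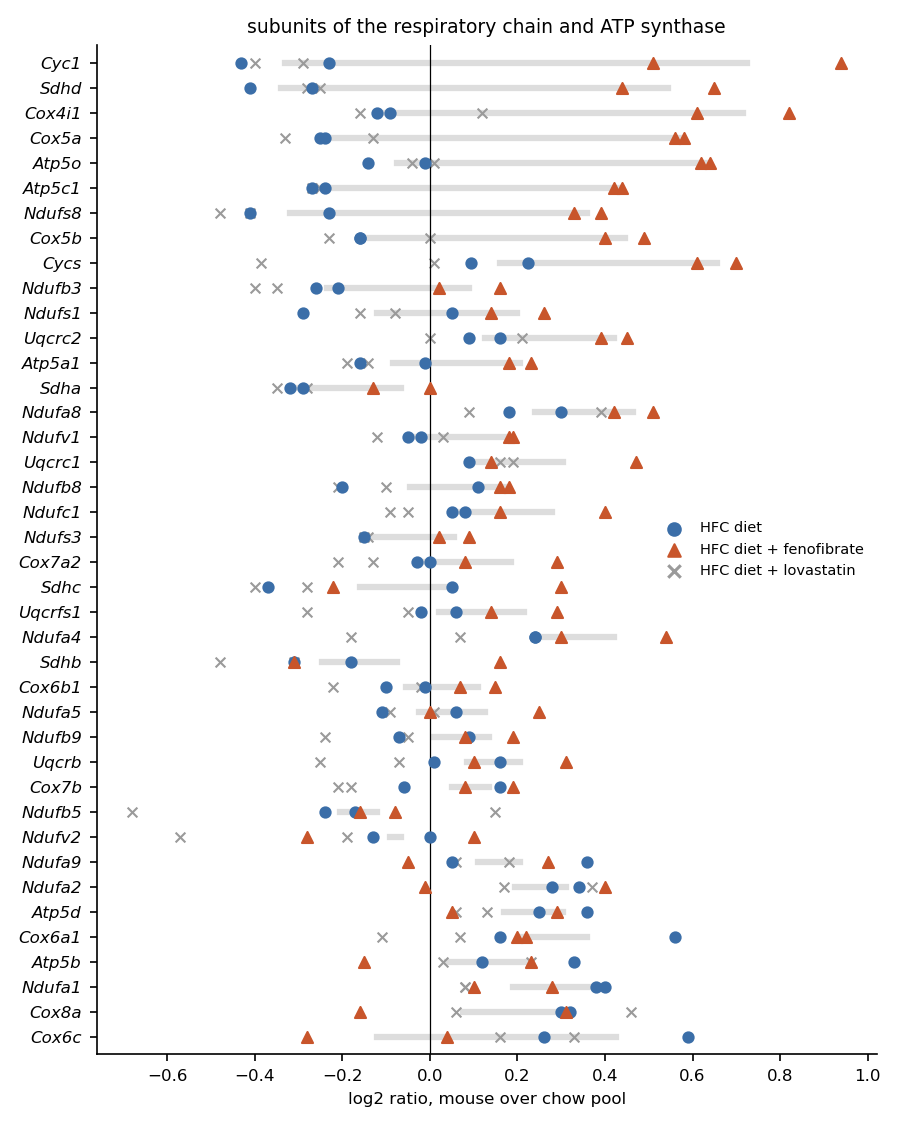
Log2 ratio of each mouse to the chow pool for 40 measured subunits of the respiratory chain and ATP synthase, ordered by difference, with HFC arrays as circles, fenofibrate arrays as triangles, lovastatin arrays as crosses and grey bars joining the HFC and fenofibrate means. Triangles lie right of both circles for 23 of the 38 members measured on all 4 arrays, with Cyc1 at the top, and Ndufs3 and Uqcrc1 lack a value on HFC replicate 2.

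Genes of the cell cycle were higher for 20 of 33 members and lower for 4, with a median difference of 0.275 over the 35 measured. Tk1, thymidine kinase, read -0.73 and -0.66 on HFC and 0.06 and -0.20 with fenofibrate. Mcm6, a replication helicase subunit, read 0.89 and -0.21 against 1.41 and 1.43. Cdk1, the mitotic kinase, read 0.52 and 0.07 against 0.87 and 1.48, and its lovastatin arrays read 1.76 and 0.93. The groups of Mcm6 and Cdk1 lay apart by no more than 0.6, less than the distance between the HFC mice of Mcm6. The lower members were Ccnd1, Ccnd2, Cdkn1a and E2f1, regulators of entry into the cycle. Only 1 of the 35 measured members had an unadjusted p under 0.05 by limma. Lovastatin arrays also both exceeded both HFC arrays for 8 of the 20, beside 924 of 3477 higher features over all features. Under the opposite sign of the fenofibrate ratios, 2 of the 33 were higher and 25 lower.

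Cholesterol synthesis genes were far below the pool on both sides of the comparison. The median member read -2.35 and -2.09 on HFC and -2.14 and -2.42 with fenofibrate. Of 16 members, 4 were lower with fenofibrate and 1 higher. This split depended on the scaling of the arrays. Under quantile normalization 8 members were higher and 1 lower, and under MAD scaling 0 were higher and 1 lower. With the sign of the fenofibrate ratios turned, 16 of 16 were higher. Sqle, squalene epoxidase, read -3.48 and -3.06 against -4.10 and -4.49 (difference -1.02, SE 0.30). Tm7sf2, a sterol reductase, read -1.69 and -1.48 against -2.75 and -2.36. Insig2, which holds the sterol sensor in the endoplasmic reticulum, was above the pool at 2.02 and 1.94 and less so with fenofibrate, at 0.95 and 1.17. Lovastatin read 1.30 and 1.03 for Insig2, also below both HFC arrays. Abcg1, a sterol exporter, read 0.22 and 0.38 against 1.35 and 1.33.

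Bile acid genes were lower for 10 of 23 members and higher for 4. Cyp7a1, whose hydroxylase paces the making of bile acids, read -1.67 and -1.40 on HFC and -2.11 and -2.67 with fenofibrate (difference -0.85, SE 0.30). Abcb11, the bile salt export pump, read 1.58 and 1.64 against 0.73 and 0.90. Nr0b2, a receptor that represses Cyp7a1, read 0.98 and 1.29 against 0.51 and 0.38. All 3 genes were lower on both fenofibrate arrays, and on both lovastatin arrays too, which share the HFC baseline. Cyp8b1, which sets the bile acid hydroxylation pattern, was lower by a narrow gap, at -2.79 and -2.58 against -2.81 and -3.09 (difference -0.27, SE 0.34). Turning the sign of the fenofibrate ratios made 13 of 23 bile acid members higher and 8 lower.

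Fatty acid and triglyceride synthesis genes were split, with 6 of 24 members higher and 7 lower. Fads2, a desaturase for polyunsaturated fatty acids, read -0.52 and -0.42 on HFC and 0.57 and 0.30 with fenofibrate, with lovastatin at -0.50 and -0.53. Lpin1, a phosphatidate phosphatase and coactivator, read -0.07 and 0.29 against -0.77 and -1.0. Thrsp, a lipogenic regulator, read -1.27 and 0.45 against -1.93 and -2.39. Scd1, the main liver desaturase, overlapped at 0.19 and 1.09 against 1.14 and 0.13. Fasn, fatty acid synthase, overlapped at -2.01 and -0.35 against -1.64 and -2.41, and its HFC mice differed by more than the groups did. Lipid droplet and lipolysis genes were higher for 4 of 21 members and lower for 7.

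Sterol efflux genes driven by LXR, the oxysterol receptor, were higher for 4 of 9 members and lower for 1. Besides Abcg1, Lpcat3, which remodels phospholipids, read -0.23 and -0.09 on HFC and 0.54 and 0.43 with fenofibrate. Abca1, a sterol exporter to HDL, read 0.13 and -0.23 against 0.55 and 2.03, so its fenofibrate mice differed from each other by more than the groups lay apart. Abcg5, a sterol exporter into bile, overlapped at 1.26 and 1.33 against 1.58 and 1.05.

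Genes of drug metabolism and redox defence showed no common side. Cytochromes P450 of drug metabolism were higher for 3 of 28 members and lower for 6, among them Cyp2a12, at 0.98 and 0.85 on HFC against -0.03 and 0.13 with fenofibrate. Conjugating enzymes were higher for 8 of 31 and lower for 7. Members of the list for NRF2, a sensor of oxidative stress, were higher for 4 of 16 and lower for 5, with Nqo1, a quinone reductase, at -0.10 and -0.04 against 0.34 and 0.46. Nuclear receptors and coactivators were higher for 5 of 27 and lower for 7. Ncoa2, a coactivator, read -0.56 and -0.70 against 0.10 and 0.14, and Nr1i2, the xenobiotic receptor PXR, read 1.16 and 1.41 against 0.79 and 0.72.

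Markers of other liver cells gave smaller shifts. Kupffer cell and macrophage markers were lower for 8 of 22 members and higher for 2, with a median difference of -0.253. Lyz2, lysozyme, read 0.07 and 0.20 on HFC and -0.51 and -0.54 with fenofibrate, and Adgre1, which encodes F4/80, read 0.24 and 0.06 against -0.38 and -0.33. The defining markers Clec4f, Marco and Cd68 overlapped. Interferon response genes were lower for 13 of 36 members and higher for 3, with Ifit3 at -0.17 and 0.12 against -0.80 and -0.90. Lymphocyte markers were lower for 7 of 18 and higher for 1. With the sign of the fenofibrate ratios turned, 22 of 36 interferon members were higher and 1 lower, 11 of 22 macrophage markers higher and 6 lower, and 6 of 18 lymphocyte markers higher and 0 lower. Of 14 endothelial markers 3 were higher and 1 lower, and of 29 stellate cell and matrix members 6 were higher and 8 lower. Red cell markers were lower for 2 of 5 and higher for 0, with Hba-a1, an α-globin gene with a near copy, at -0.08 and 0.12 against -0.55 and -1.43. The part of these cell markers in any other result was not tested.

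**Figure D5:**
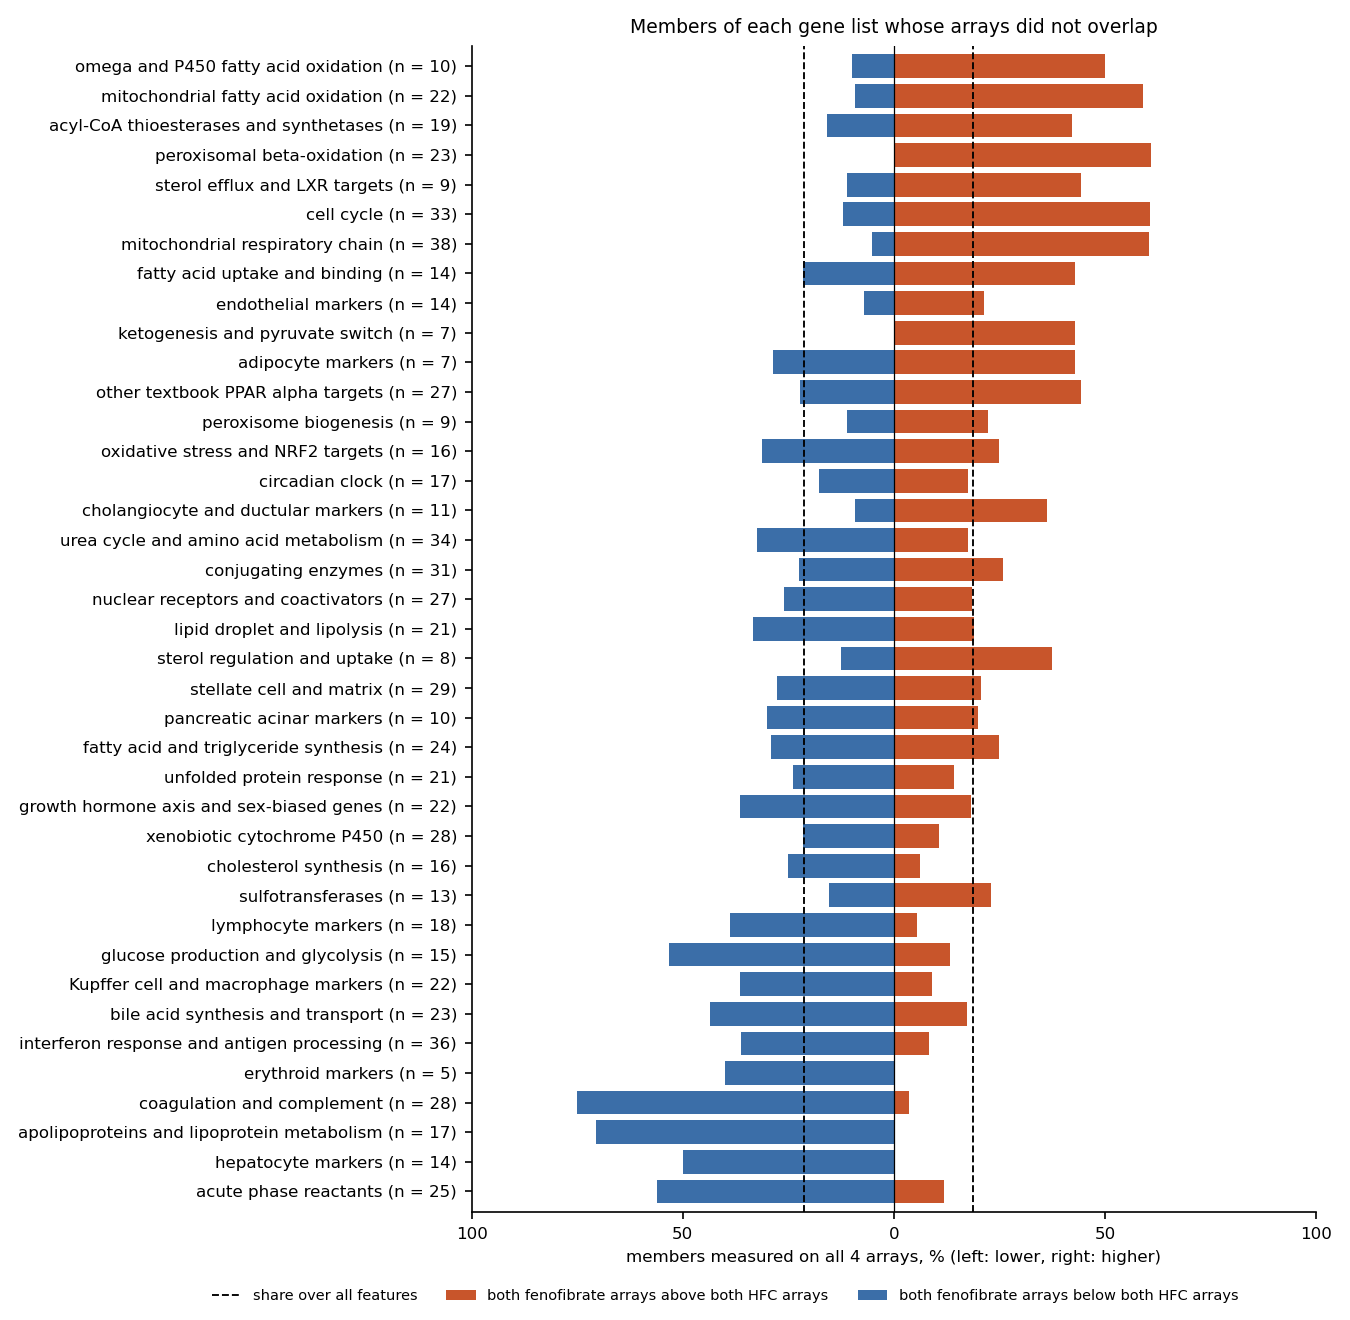
For each of 39 gene lists, the percent of members measured on all 4 arrays whose fenofibrate arrays both lay above (orange, right) or both below (blue, left) both HFC arrays, ordered by median difference, with dashed lines at the shares over all features, 18.8% and 21.4%. Peroxisomal and mitochondrial fatty acid oxidation, the respiratory chain and the cell cycle extend to the right, and coagulation, apolipoproteins and acute phase reactants to the left.

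The bar plot of the 39 lists sets these counts side by side. Lists such as the circadian clock (3 of 17 higher and 3 lower), the unfolded protein response (3 of 21 and 5) and stellate cell genes ended near the dashed lines on both sides. Several lists share genes, and the genes of a list are not independent of each other.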

How the data were processed

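Liver RNA of single mice was hybridised on 2-colour arrays against a pool of 6 chow-fed mice, labelled from 0.5 µg of total RNA by linear amplification, per the labels. The table the authors deposited holds 1 log2 ratio per spot, with base 2 taken by convention. Which scanner software and which normalization were used is not given in the sources used here. Intensities were not used, so dim probes stayed in. The number of arrays limits the precision. The study's other mice were not analysed here.

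Of 22575 spots, 726 were empty and 561 repeats of an unnamed control were dropped. In the displaced blocks of HFC replicate 2 (10470 probes, of which 788 lost their value on rotation), values were moved back, and a repeated reporter used its own spots. The platform annotation gave 1 symbol to 18658 probes, several to 30 and none to 3887 spots. Probes of a gene were averaged (1207 genes had more than 1), giving 16887 genes, which with 2630 unnamed probes made 19517 features. Fits on all 6 arrays used limma 3.58.1 in R 4.3.3 (statmod 1.5.0), with group means, 3 residual degrees of freedom and Benjamini-Hochberg adjustment over all features. The fit was tested on simulated data. Each replicate is a separate mouse per the labels, and p-values rest on 2 mice a group.

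Members and gene lists were chosen with earlier results of these data known. Named genes are the 15 non-overlapping genes with the largest gap in each direction, at most 5 per list by smallest p and a fixed set. Members named only to complete a short count or as examples of overlap were chosen after their values were seen. Replicate numbers 1 and 2 do not pair the mice: deviations of same-numbered arrays correlated at 0.00102. Alternatives covered the displaced blocks, scaling, the sign of the fenofibrate ratios, single probes, noisy features, the prior, array weights, a replicate block and each array left out. Promoters came from RefSeq (GRCm38.p6). Python 3.11.15, numpy 2.4.6, pandas 2.3.3 and matplotlib 3.10.9 prepared the data and figures.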

Additional observations from a re-analysis of the deposited data

How the results depend on the processing

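The count of features past the adjusted threshold by limma was 0 in every setting run except when the fenofibrate ratios were turned in sign, which gave 117, and unadjusted counts ran from 321 to 1900. A replicate block left the count at 0, with 674 unadjusted, and the numbers do not pair the mice. Leaving out each array in turn gave 0 each time. Non-overlapping features numbered 1906 higher and 1995 lower without the displaced blocks, which leaves fewer features, and 97.5% of each were also found with the blocks rotated. As deposited there were 3508 and 3795. Of 3710 values of 219 named genes under other settings, 189 had the opposite sign, 38 of them other than with the turned ratios, and none of those 38 passed. With turned ratios the difference changed sign and passed for these genes, in log2 units: Acot1 -5.88, Krt23 -5.01, Fabp2 -4.17, Lpl -4.14, Cyp4a14 -3.69, Cyp4a31 -3.47, Ehhadh -2.94, Fabp1 -2.62, Abcg5 -2.61, Cyp4a12a -2.56, Cyp4a10 -2.44, Ttr 2.0, Ebp 2.33, Cyp2c40 2.44, Gbp3 2.52, Glul 2.63, Oat 3.30, Gnmt 3.46, Cyp7a1 3.92, Tm7sf2 4.14, Sult1e1 4.22, Mvd 5.11, Cyp8b1 5.63, Mup5 6.80, Sqle 7.57, Sult3a1 10.28. Whether the ratios of both groups run in the same direction rests on the labels, the control reporter and the positive correlation of HFC with fenofibrate arrays (r 0.178 to 0.319). Depth of signal could not be judged without intensities, and dye and drug cannot be told apart.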

Other observations

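Odorant, vomeronasal and taste receptor genes, best known from sensory tissue, gave 308 of 823 members (37.4%) whose groups did not overlap, beside 40.2% over all features. Of these 91 (11.1% of the members) were higher and 217 (26.4%) lower with fenofibrate, beside 18.8% and 21.4% over all features. The median difference of the group was -0.1, beside -0.03 over all features. This group was chosen after its values were seen, and it stands beside the lipid lists as a description of how often groups of 2 separate on these arrays.

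Genes that differ between the sexes or follow growth hormone in liver were lower for 8 of 22 members and higher for 4. Sult3a1, a sulfotransferase, was the gene farthest below the pool among those named, at -4.91 and -3.50 on HFC and -5.80 and -6.34 with fenofibrate. Mup5, a major urinary protein with near copies whose probes could cross-hybridise, read -2.37 and -3.17 against -3.91 and -4.15. Elovl3, a fatty acid elongase, lay the other way, at -1.18 and -0.04 against 0.17 and 0.80. Among cytochromes of drug metabolism, Cyp2c55 was high in both groups, at 3.13 and 3.00 against 2.34 and 2.32. Krt23, a keratin, read 1.76 and 2.10 on HFC and 3.34 and 2.83 with fenofibrate, while the ductular keratins Krt19 (0.59 and 0.62 against 0.23 and -0.36) and Krt7 (-0.06 and 0.45 against -0.05 and -0.10) did not lie higher. Cholangiocyte and ductular markers, Krt23 among them, were higher for 4 of 11 members and lower for 1, beside 18.8% and 21.4% over all features. Under MAD scaling or quantile normalization 2 were higher and 1 lower, and with the fenofibrate sign turned 2 were higher and 5 lower.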
